A study of Homo sapiens with 5 samples.

Results

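Histone genes are the members described here: 73 of the 27477 genes in the authors' deposited table, chosen by symbol (names beginning HIST1H to HIST4H, H2AF, H3F3 or H1F, or their current equivalents). Of these, 58 are clustered genes, which carry HIST symbols and are replication-dependent as a class, and 15 are variant genes, which lie singly and are expressed outside S phase as well. The RNA came from PC9 cells, a human lung adenocarcinoma line, long established, whose growth depends on a mutant EGFR. There were 2 libraries labelled DTC, from PC9 cells given 50 nM gefitinib, an inhibitor of the EGFR kinase, for 6 days and then growth medium for 3 days. They are set against 3 libraries labelled Parental. The treatment text is attached to every sample in the labels, so that Parental cells were left untreated is taken from their group name. All cells grew with serum, RNA was isolated with TriZol, and a stranded mRNA kit was used for the libraries. No label says that the replicates were separate cultures, so the p-values reflect the scatter among these libraries and no more, and that scatter may be technical.

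Replication-dependent histone mRNAs are made in S phase to package new DNA. Their main transcripts end just after a conserved stem-loop bound by SLBP and carry no poly(A) tail, and they are degraded when DNA synthesis stops. Most variant histone genes make polyadenylated mRNAs throughout the cell cycle, and some clustered genes also give longer, polyadenylated transcripts, mainly in differentiated or resting cells. A library made for mRNA with a tail therefore samples the main product of most variant genes and the tailed products of clustered genes.

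The 3′ ends are printed for the members on which the results turn, as RNA-sense DNA of the GENCODE 29 transcripts (GRCh38). Capitals mark the stem-loop, a stem of 6 base pairs closed by a loop of 4 bases, between 5 flanking bases on each side.
HIST1H2AC stem-loop: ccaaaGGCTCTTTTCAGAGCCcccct
HIST2H2BE stem-loop: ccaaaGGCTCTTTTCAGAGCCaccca
HIST1H2BD stem-loop: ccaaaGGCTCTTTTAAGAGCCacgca
HIST2H4A stem-loop: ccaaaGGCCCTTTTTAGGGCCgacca
HIST1H3G stem-loop: aaaaaGGCTCTTTTAAGAGCCgccta
HIST3H2A stem-loop: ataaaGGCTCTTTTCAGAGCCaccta
H2AFX stem-loop: acaaaGGCCCTTTTAAGGGCCaccac
The same core occurs in genes of different histone types, and H2AFX was the variant gene that had one. Of 19684 protein-coding genes with a transcript, 53 held a stem-loop match, or 0.269%.

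Many annotated models of clustered genes continue beyond the stem-loop to a poly(A) signal (AATAAA or ATTAAA), which is marked by capitals in the ends printed next to those of 3 abundant variants.
HIST1H2AC poly(A) signal: ctggcatgaggtAATAAAaggtaatgcaaa
HIST2H2BE poly(A) signal: gctattgttattAATAAAgttaccaattaa
HIST2H4A poly(A) signal: tacacatttaagAATAAAcagtccagtagt
H3F3B poly(A) signal: ggatgagactaaAATAAAatttttgaagtt
H2AFZ poly(A) signal: gtggataagttcAATAAAggtcatatccca
H1FX poly(A) signal: ttttttgggcacAATAAAgcgtttaaacct
The distance from the stem-loop to the end of the model was 1128 bases in HIST1H2AC, 1729 in HIST2H2BE and 1167 in HIST2H4A. Such a signal stood in the last 50 bases of a transcript in 22 of the 58 clustered genes, 14 of the 15 variants and 84.8% of all protein-coding genes. By their models, 22 clustered genes ran at least 100 bases past the stem-loop, 9 ended near it, and 26 held none. The last kind, which includes HIST1H2BK, had models of 312 to 950 bases, and in 24 of the 26 the length was a multiple of 3, as it is in coding sequence alone. HIST2H2BC is not in GENCODE 29, and its current symbol, H2BC20P, is that of a pseudogene. By its deposited symbol it is counted here among the clustered H2B genes.

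The table gives each gene's mean over the libraries and no value per library. Whole reads of each library were recovered from the mean, the fold change and its error for 66 of the 73 members, and carry no replicate number, so the libraries are called DTC a and b and Parental a, b and c. Depth, estimated as the size factor times the summed gene means, was about 14.2 to 21.4 M reads per library. Reads in all were not counted. Parental a stood apart from the other Parental libraries: over genes with a mean of 30 to 100, chi-square values per degree of freedom were 12.9 and 13.9 against Parental b and c, but 3.95 and 3.75 against the DTC libraries. It was 1.35 between the DTC libraries and 1.80 between Parental b and c, which differ beyond sampling noise and are counted as separate. Reads of transcripts over 4000 bases per read of transcripts under 2000 bases were 1.31 and 1.24 in DTC a and b, 1.49 in Parental a, and 0.774 and 0.737 in Parental b and c. No batch is labelled, and whether Parental a is mislabelled or comes from another batch was not tested. Each Parental mean and each permutation p includes it. Histone transcripts are mostly short, so many results are given by library or against both kinds of Parental library where reads allow. The part of this split in the results was not tested.

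No histone gene was called at an adjusted p under 0.05 in the authors' deposited table (0 of 37 tested by DESeq2), where 0.552% of the 15223 tested genes were called. At an unadjusted p under 0.05 the authors' deposited table had 2 members higher in DTC, HIST1H2AC and HIST1H2BK, and 2 lower, H1FX and H3F3A, against 3.7% and 7.1% of all tested genes. Among tested genes the classes lay on different sides of 0. Of 28 tested clustered genes, with copies that share reads each counted, 20 had a positive log2 fold change (DTC over Parental) and the median was 0.22. In the authors' deposited table all 9 tested variants were negative, at a median of -0.53. Over all 15223 tested genes the median was -0.02, with 7372 above 0 and 7851 below. In bulk RNA a different share of cells in S phase and a different amount of histone RNA per cell cannot be told apart. The other 30 clustered and 6 variant genes had too low a mean for an adjusted p in the authors' deposited table, whose lowest tested mean was 8.23. Without that filter the medians were close to each other, at -0.04 over all 58 clustered genes and -0.21 over all 15 variants in the authors' deposited table.

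**Figure D1:**
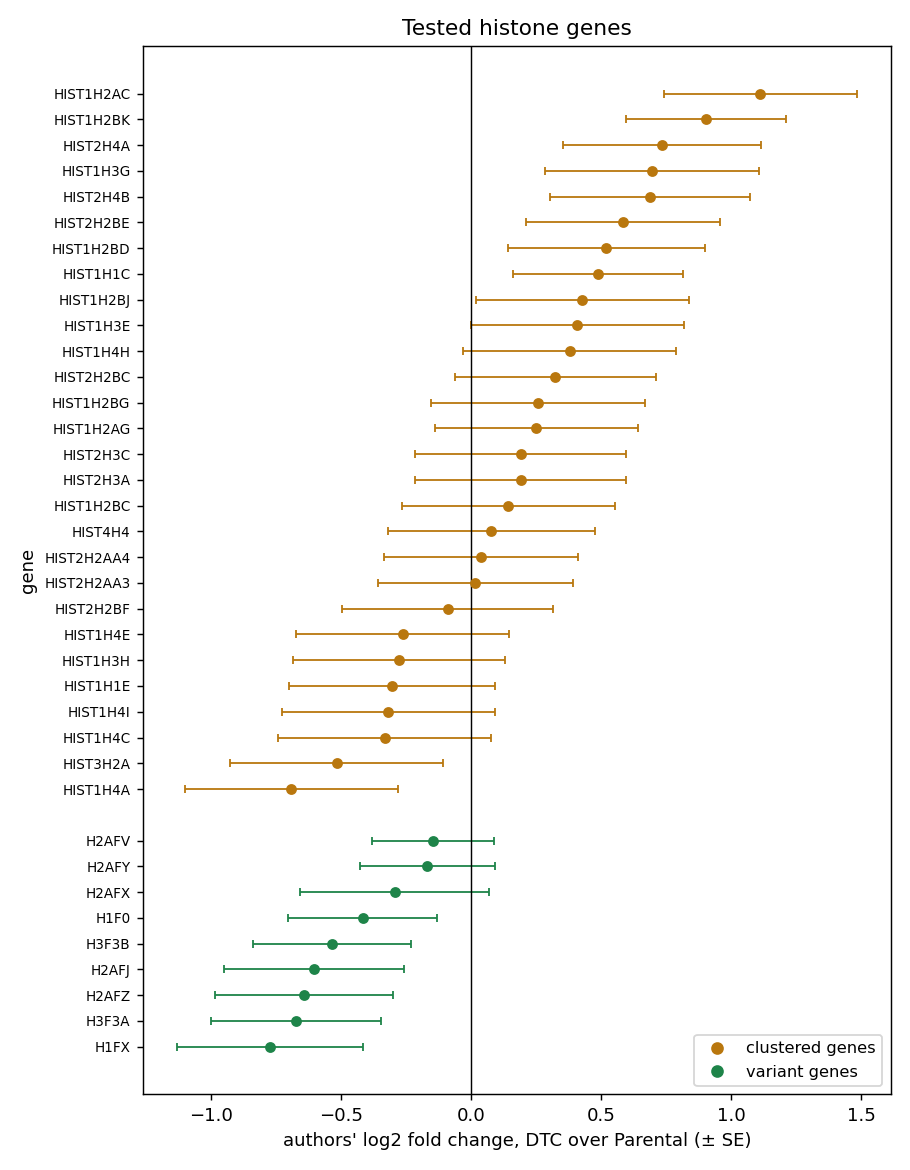
Log2 fold change (DTC over Parental) with its SE from the authors' deposited table, for the 37 tested histone genes; clustered genes are the upper block and variant genes the lower. All 9 variants lie left of 0 and 20 of 28 clustered genes lie right of it, with copies that share reads each shown.

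The classes also differed widely in level. Clustered genes together held 0.00452% of the summed mean levels of the table and variants 0.174%. Per 1000 bases of the longest annotated transcript, the median mean level of tested genes was 13.6 in clustered genes and 871 in variants. The highest clustered level on that scale was 298, in HIST1H2BK, and the lowest tested variant was H2AFJ at 166. The model of HIST1H2BK is short, so its level per length may be too high.

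Among core H2B genes, HIST1H2BK (H2BC12, ENSG00000197903; chromosome 6, 27146418 to 27146798, minus strand, GRCh38) had the most reads of any clustered gene. It had 192 and 129 reads in DTC a and b, against 69, 96 and 80 in Parental a, b and c. Divided by the size factors these were 169 and 164 normalised reads in DTC, against 57.9, 94.3 and 83.3 in Parental. Both DTC libraries lay above every Parental library. The means were 166 ± 4.1 in DTC (SD, n = 2) and 78.5 ± 18.7 in Parental (SD, n = 3), a ratio of 2.12. An exact permutation test over the libraries (two-sided) gave p = 0.1, the smallest that 2 against 3 allows. The authors' deposited table gives 0.90 ± 0.31 (log2, SE; DESeq2 adjusted p 0.20). The DTC mean was 2.87 times Parental a and 1.87 times the mean of Parental b and c.

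HIST1H2AC (H2AC6, ENSG00000180573; chromosome 6, 26124145 to 26139116, plus strand), an H2A gene, had the largest fold change of all members. Its normalised reads were 48.5 and 86.2 in DTC, against 26.9, 17.7 and 23.9 in Parental, from 55 and 68 reads against 32, 18 and 23. The groups did not overlap, although the DTC libraries differed between themselves. The ratio of means was 2.95 and the exact permutation p again 0.1. In the authors' deposited table its log2 fold change was 1.11 ± 0.37 (SE; DESeq2 adjusted p 0.19). The DTC mean was 2.51 times Parental a and 3.24 times Parental b and c.

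Fold changes in this table followed transcript length, with a Spearman correlation of 0.54 across 12461 protein-coding genes, which are not independent replicates. With the trend for length and GC content removed, HIST1H2BK and HIST1H2AC passed the threshold, at 1.29 with an adjusted p of 0.010 and 1.42 with an adjusted p of 0.029 (recomputed from the deposited DESeq2 values). For HIST1H2BK this rests on a short model. The same step moved the median of the tested clustered genes from 0.22 (28 genes) to 0.51 (27 genes). The share of all tested genes called after it is not given here, so whether 2 calls are many was not tested.

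The other H2B genes were smaller in number of reads. HIST2H2BE had 35.3 and 45.6 normalised reads in DTC, against 23.5, 16.7 and 28.1 in Parental. HIST1H2BD had 28.2 and 41.8 in DTC, against 24.3, 16.7 and 20.8 in Parental. HIST1H2BJ had 15 and 8.87 in DTC, against 7.55, 5.90 and 6.25 in Parental. In these 3 genes both DTC libraries exceeded every Parental library, and none was called. HIST1H2BJ had a mean of 6.57 in Parental, below the lowest tested mean of 8.23, and 11.9 in DTC. It thus passed the minimum mean through its DTC reads. The other 4 tested H2B genes overlapped between the groups. HIST2H2BC had 26.5 and 33.0 normalised reads in DTC, against 14.3, 27.5 and 21.9 in Parental, and HIST2H2BF 11.5 and 16.5 in DTC, against 13.4, 22.6 and 10.4 in Parental. HIST1H2BC and HIST1H2BG were at 0.14 ± 0.41 and 0.26 ± 0.41 (log2, SE) in the authors' deposited table. HIST1H2BG had a mean of 7.94 in Parental and 11.6 in DTC, so it too passed the minimum mean through its DTC reads. HIST1H2BL, without an adjusted p, had 0 and 0 reads in DTC, against 1, 1 and 4 in Parental. Summed over the 16 clustered H2B genes, there were 323 and 368 normalised reads in DTC, against 175, 219 and 225 in Parental. Without HIST1H2BK the ratio of the group means was 1.4, against 1.67 with it, and the groups still did not overlap.

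Clustered H2A genes were mixed. HIST3H2A, on chromosome 1, had 25.6 and 19.0 normalised reads in DTC, against 12.6, 64.9 and 54.1 in Parental. DTC was thus above Parental a and below Parental b and c. The copies HIST2H2AA3 and HIST2H2AA4, which differed by at most 2 reads in a library and so share reads, had ratios of means of 1.02 and 1.04. HIST1H2AG had 27.3 and 19.0 normalised reads in DTC and 19.3, 15.7 and 18.7 in Parental, so the groups overlapped.

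Linker histone H1 compacts the DNA between nucleosomes. HIST1H1C, the clustered H1 with the most reads, had 86.4 and 110.3 normalised reads in DTC, against 52, 58.0 and 83.3 in Parental. DTC lay above Parental, by little over Parental c. The authors' deposited table has it at 0.49 ± 0.33 (log2, SE; DESeq2 adjusted p 0.52). HIST1H1E overlapped between the groups, with 13.2 and 24.1 in DTC and 23.5, 18.7 and 35.4 in Parental.

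H4 genes went different ways. HIST2H4A had 33.5 and 55.8 normalised reads in DTC, against 16.8, 18.7 and 28.1 in Parental, a ratio of 2.11. Its near-identical copy HIST2H4B differed from it by at most 3 reads in a library and is no second result. HIST1H4C had 23.8 and 29.2 in DTC, against 8.39, 50.1 and 68.7 in Parental. DTC was 3.15 times Parental a but 0.446 times Parental b and c. HIST1H4A was the 1 tested clustered gene whose DTC libraries both lay below all Parental libraries, at 7.05 and 5.07 in DTC, against 7.55, 22.6 and 21.9 in Parental. In HIST1H4H the DTC libraries disagreed, at 9.70 and 59.6, against 10.9, 20.6 and 28.1 in Parental.

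Among H3 genes HIST1H3G was higher, with 14.1 and 20.3 normalised reads in DTC, against 5.88, 9.83 and 4.16 in Parental. Its mean was 6.62 in Parental, below the lowest tested mean of 8.23, and 17.2 in DTC. HIST1H3G thus passed the minimum mean through its DTC reads. HIST2H3A and HIST2H3C had identical reads in every library, as copies do whose reads cannot be assigned. Several H3 genes of chromosome 6 without an adjusted p were near 0 in DTC. HIST1H3B had 0 and 1 reads in DTC, against 6, 5 and 8 in Parental. HIST1H3A had 0 and 0 reads in DTC, against 2, 5 and 3 in Parental; a count of 0 in both DTC libraries together allows a mean of up to 1.56 normalised reads, for counting error only. With HIST1H3C, HIST1H3I and HIST1H3J, a group chosen after the values were seen, the 5 genes summed to 4 and 3 reads in DTC, against 17, 20 and 27 in Parental. Their summed normalised DTC mean was 0.257 times Parental a and 0.153 times Parental b and c. The authors' deposited table has HIST1H3B at -0.66 ± 0.37 (log2, SE; unadjusted p 0.072).

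**Figure D2:**
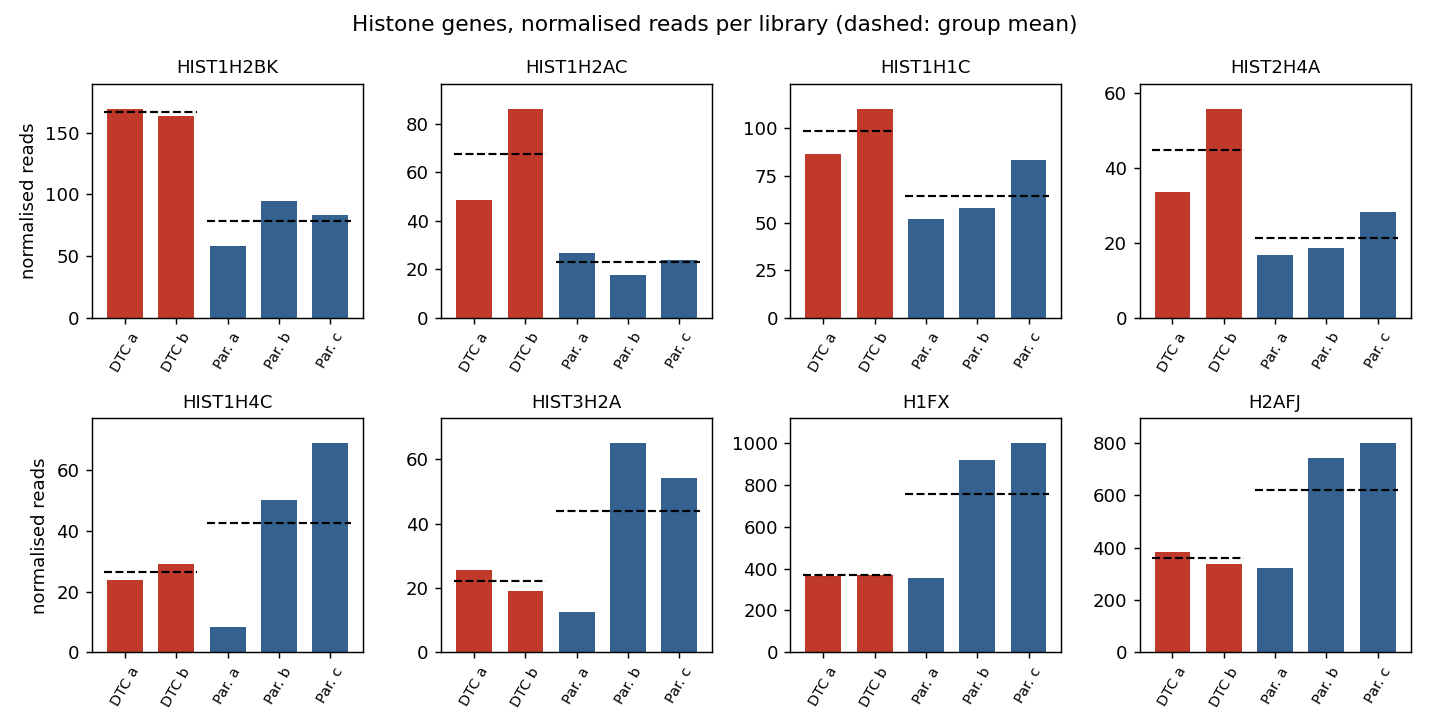
Normalised reads (reads divided by the library's size factor) of 6 clustered genes and the variants H1FX and H2AFJ in each library, DTC in red and Parental in blue, with dashed lines at the group means; H1FX and H2AFJ show the closest of several sets of reads. HIST1H2BK, HIST1H2AC, HIST1H1C and HIST2H4A are higher in both DTC libraries than in any Parental library, while in HIST1H4C, HIST3H2A, H1FX and H2AFJ Parental a (Par. a) lies apart from Parental b and c.

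Taking 1 gene of each pair of copies, 25 clustered genes were tested. Both DTC libraries lay above all 3 Parental libraries in 9 of them, or 36%, against 14.5% of the 4613 tested genes with recovered reads, and below in 1, against 18.1%. In 5 genes Parental a lay with the DTC libraries below Parental b and c, or 20%, against 29.6% of the 4613. In 4 genes, HIST1H2AC, HIST1H2AG, HIST1H2BD and HIST1H2BJ, Parental a lay with the DTC libraries above Parental b and c, or 16%, against 36.7% of the 4613. The mean of the DTC libraries exceeded Parental a in 21 of the 25 genes and the mean of Parental b and c in 16. The matching shares of all tested genes with reads were 42.6% and 52.4%. Testing required a minimum mean over all libraries, which favours genes high in either group. HIST1H2BJ and HIST1H3G, among the 9, passed it through their DTC reads, and HIST1H4A, the 1 below, through its Parental reads. HIST1H2BG, among the 21 and the 16, also passed it through its DTC reads, and HIST1H3H, among the 21, through its Parental reads. These counts thus describe the 25 genes and are no support for the class as a whole. In the 30 clustered genes without an adjusted p, both DTC libraries lay above all Parental libraries in 1 and below in 9. Over all 58, each copy counted, it was 12 above and 10 below. The matching shares of all genes without an adjusted p are not given here.

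The summed reads of all 55 clustered genes, again with 1 of each pair of copies, were 727 and 977 normalised reads in DTC, against 500.3, 697 and 812 in Parental. The groups overlapped, and the ratio of the means was 1.27, or 1.70 over Parental a and 1.13 over Parental b and c. HIST1H2BK weighed heavily in that sum; the ratio was 1.16 without it. The 25 tested genes summed to 684 and 898 in DTC, against 437, 609 and 683 in Parental, while the 30 genes without an adjusted p summed to 42.3 and 79.9 in DTC, against 63.8, 87.5 and 129 in Parental. The first of these sums was higher in both DTC libraries than in any Parental library, but nearly equal in DTC a, at 684, and Parental c, at 683. Without HIST1H2BK the tested genes summed to 515 and 734 in DTC, against 379, 515 and 599.6 in Parental, and the groups overlapped. The second sum overlapped with a lower DTC mean. The 2 sums are split by the minimum mean, which depends on the reads themselves. By histone type the ratios of the means were 1.24 for H1, 1.16 for H2A, 1.67 for H2B, 1.02 for H3 and 0.979 for H4. Over Parental a they were, in that order, 1.52, 1.62, 1.98, 1.33 and 1.63. Over Parental b and c they were 1.14, 1.02, 1.55, 0.908 and 0.816, so H3 and H4 lay on different sides of 1.

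**Figure D3:**
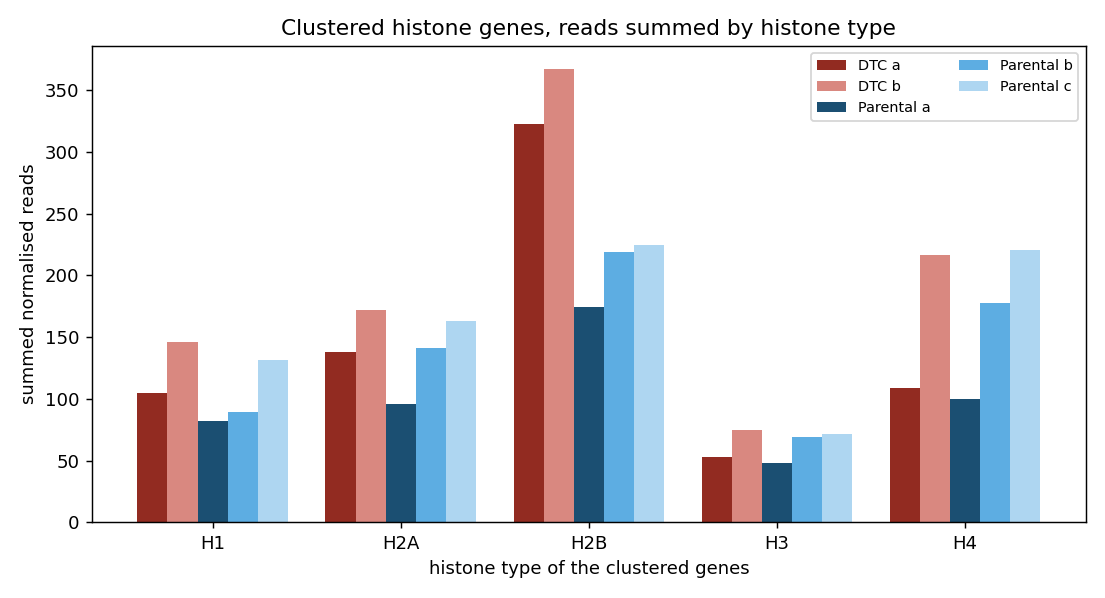
Normalised reads of the clustered genes summed by histone type in each library, DTC bars left of Parental bars, with 1 gene counted of each pair of copies. H2B is the type in which both DTC libraries, at 323 and 368, exceed all Parental libraries, the highest of which is at 225.

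The clustered genes were also summed by their annotated ends. Genes whose model runs past the stem-loop (20 after removal of copies) summed to 299.8 and 475 normalised reads in DTC, against 229, 304 and 326 in Parental, a ratio of 1.35. Genes whose model ends near it (8) summed to 62.6 and 88.7 in DTC, against 62.1, 56.0 and 76.0 in Parental, a ratio of 1.17. In both kinds the groups overlapped. The first ratio was 1.69 over Parental a and 1.23 over Parental b and c, and the second 1.22 and 1.15. HIST1H2BD gave 28.2 and 41.8 of the second sum in DTC, against 24.3, 16.7 and 20.8 in Parental. It has another model with a poly(A) signal near its end, and HIST2H2AA4 also has such a signal. The second kind therefore does not stand for transcripts without a tail. The 26 genes with short models had a ratio of 1.21, or 1.84 over Parental a and 1.03 over Parental b and c. It became 0.61 without HIST1H2BK and HIST1H1C, the pair with the most reads. That value was 1.11 over Parental a and 0.497 over Parental b and c.

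Clustered genes often stand head to head. There were 9 pairs on opposite strands with 219 to 357 bases between their annotated starts, and 8 of them join an H2A with an H2B gene. The 2 pairs with both members tested had fold changes of the same sign. HIST1H2AC is paired with HIST1H2BC across 219 bases, and the log2 fold changes were 1.11 and 0.14 in the authors' deposited table. HIST1H2AG and HIST1H2BJ, across 292 bases, were at 0.25 and 0.43 in the authors' deposited table. The members of a pair can differ greatly in level: HIST1H2BK had a mean level of 114 and its partner HIST1H2AH 3.28, with 2 and 3 reads in DTC, against 2, 4 and 5 in Parental. HIST2H2BE had a mean of 29.8 and its partner HIST2H2AC 3.61, with 1 and 1 reads in DTC, against 3, 3 and 10 in Parental. In that pair HIST2H2BE was higher in both DTC libraries than in any Parental library and HIST2H2AC lower.

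The promoters of the 2 clustered genes with the largest fold changes are shown with that of H3F3B, an abundant variant, because the first 2 lie in such shared intervals. They are RefSeq sequences (GRCh38.p14) from 250 bases before to 50 after the start, in the direction of the gene. Capitals mark the TATA box TATAAA, the CCAAT box and the octamer motif ATTTGCAT, each on either strand, with overlapping matches merged.
HIST1H2BK promoter, chr6:27146809-27147108, minus strand: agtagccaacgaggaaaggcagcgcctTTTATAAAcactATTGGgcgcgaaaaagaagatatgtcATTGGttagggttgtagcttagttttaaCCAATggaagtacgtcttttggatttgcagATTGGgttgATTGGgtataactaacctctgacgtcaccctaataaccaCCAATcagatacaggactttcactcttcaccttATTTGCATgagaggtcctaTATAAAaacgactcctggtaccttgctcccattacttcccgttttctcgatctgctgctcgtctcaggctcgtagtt
HIST1H2AC promoter, chr6:26123922-26124221, plus strand: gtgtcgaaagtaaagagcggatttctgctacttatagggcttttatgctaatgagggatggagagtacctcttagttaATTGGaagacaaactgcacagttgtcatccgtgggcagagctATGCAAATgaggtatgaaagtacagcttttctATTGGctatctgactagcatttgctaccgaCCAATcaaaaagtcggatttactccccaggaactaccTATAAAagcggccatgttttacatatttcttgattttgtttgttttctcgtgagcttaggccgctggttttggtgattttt
H3F3B promoter, chr17:75779730-75780029, minus strand: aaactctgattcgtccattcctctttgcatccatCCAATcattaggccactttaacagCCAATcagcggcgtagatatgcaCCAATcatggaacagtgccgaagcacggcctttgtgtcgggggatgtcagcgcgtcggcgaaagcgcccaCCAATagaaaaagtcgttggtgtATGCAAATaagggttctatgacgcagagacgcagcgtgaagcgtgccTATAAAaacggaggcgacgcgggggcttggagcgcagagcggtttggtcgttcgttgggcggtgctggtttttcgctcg
All 3 hold each of the motifs. Among genes with a promoter in the table, the octamer was in 19 of 52 clustered genes, 1 of 13 variants and 2.19% of all 27305 promoters, and in 11 of the 15 H2B genes. TATAAA was in 36 of 52 clustered genes, 4 of 13 variants and 14% of all, and CCAAT in 43 of 52, 11 of 13 and 39.7%. A match describes these letters and is not a site shown to act.

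Variant genes were abundant and every tested one was lower in DTC on average, with none called. H1FX encodes a linker H1 (ENSG00000184897; chromosome 3, 129314771 to 129316277, minus strand, overlapping 1 other annotated gene). For H1FX and H2AFJ more than 1 set of whole reads matches the deposited values within the tolerance used, 2e-06 of the fold change, so their reads per library are less certain than those of other members. The closest set for H1FX, off by 6.7e-09, has 366.9 and 368.9 normalised reads in DTC, against 357, 916 and 997 in Parental. The next, off by 2.1e-07, has 34.4 and 704 in DTC, against 1289, 498 and 481 in Parental. Among the 398 genes with a mean of 80 to 100, the largest error of the known answer was also 2.1e-07, and 99% were within 3.2e-08. In the closest set DTC lay with Parental a, at a ratio of 1.03, and at 0.385 times Parental b and c, an order the next set does not have. The authors' deposited table gives -0.77 ± 0.36 (log2, SE) with an unadjusted p of 0.030 and an adjusted p of 0.45 (DESeq2). H2AFJ, an H2A variant that accumulates in senescent human cells, had that same order in its closest set, off by 4.5e-09, with 382 and 337 in DTC, against 323, 743 and 797 in Parental. Its next set, off by 1.0e-06, has 496 and 222 in DTC, against 456, 210.3 and 1198 in Parental. Its DTC mean was 1.11 times Parental a and 0.467 times Parental b and c, and its deposited value -0.60 ± 0.35 in the authors' deposited table (adjusted p 0.49, DESeq2). In the closest sets the lower DTC mean of both genes rests on Parental b and c, and the exact permutation p was 0.4.

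**Figure D4:**
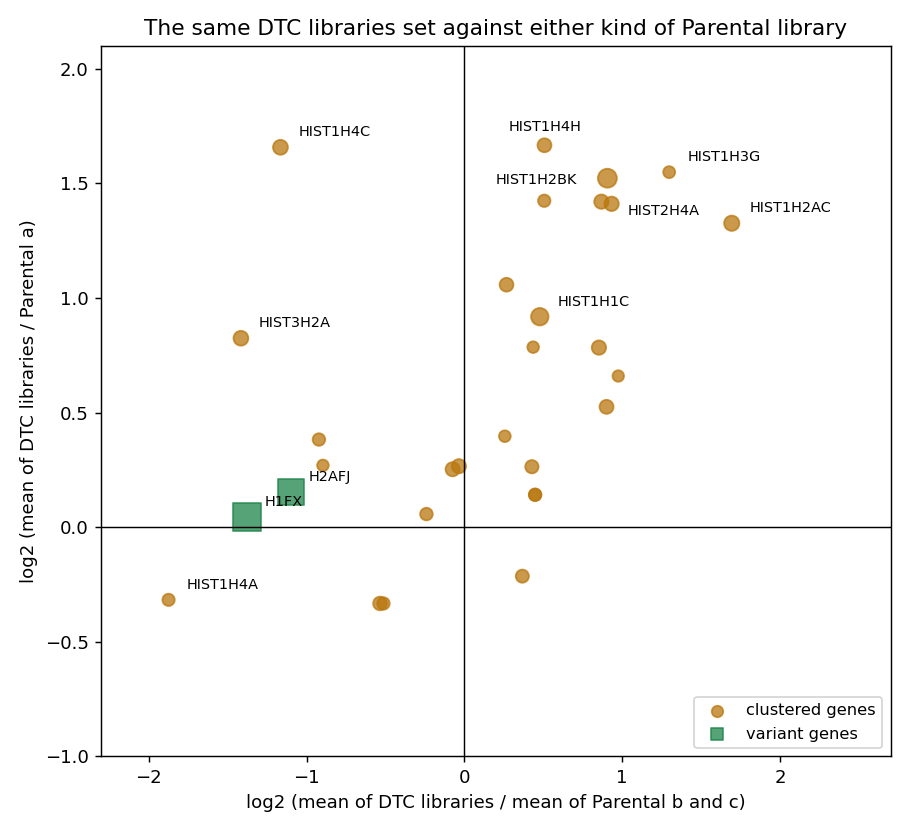
Log2 ratio of the DTC mean over Parental a (vertical) and over the mean of Parental b and c (horizontal) for tested members with recovered reads (for H1FX and H2AFJ the closest set); larger symbols have higher mean levels. HIST1H2BK and HIST1H2AC lie above 0 on both axes, HIST1H4C and HIST3H2A above 0 on the vertical axis only, and H1FX and H2AFJ near 0 on the vertical axis and below -1 on the horizontal one.

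Reads of the other 7 tested variants could not be resolved, so group means were solved from the deposited values, and no SD is available. H3F3A and H3F3B encode the same H3.3 protein, which replaces H3 outside replication. H3F3A was at 2938 normalised reads in DTC and 5263 in Parental, and at -0.67 ± 0.33 (log2, SE) in the authors' deposited table (DESeq2 unadjusted p 0.039, adjusted p 0.45). H3F3B was at 5028 in DTC and 7832 in Parental, and at -0.53 ± 0.30 in the authors' deposited table (DESeq2 adjusted p 0.49). Reads of H3F3A can be shared with processed copies elsewhere in the genome.

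H2AFZ and H2AFV encode the H2A.Z proteins, which mark promoters of active genes. H2AFZ was at 4395 in DTC and 7806 in Parental, and at -0.64 ± 0.34 in the authors' deposited table (DESeq2 adjusted p 0.47). H2AFV was at 2978 in DTC and 3330 in Parental, with a 95% interval of -0.61 to 0.31 on the log2 scale from the authors' deposited table. The related genes thus had different point values, and their difference was not tested. H2AFY, which encodes macroH2A, was at 3341 in DTC and 3809 in Parental, with an interval of -0.68 to 0.34 from the authors' deposited table. H2AFX, whose protein is phosphorylated beside DNA breaks, was at 1180 in DTC and 1557 in Parental, with an interval of -1.0 to 0.42 from the authors' deposited table. H1F0, a linker H1 known to accumulate in resting and differentiated cells, was at 3664 in DTC and 5126 in Parental, with an interval of -0.98 to 0.14 from the authors' deposited table.

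With the trend for length and GC content removed, the median of the variants was -0.20, and H2AFX was at -0.03 and H2AFZ at -0.20. The low variants had few reads: H3F3C had 6 and 2 reads in DTC, against 3, 9 and 7 in Parental, and H2AFY2 7 and 4 in DTC, against 6, 3 and 5 in Parental. The X-linked H2AFB1, H2AFB2 and H2AFB3, which share reads, and the oocyte gene H1FOO, with 2 and 0 reads in DTC and none in Parental, were near the floor.

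Genes that act on histone mRNA and protein were taken as lists. Of 25 genes for histone mRNA transcription, 3′ processing and decay, all 25 were tested and 0 called in the authors' deposited table (DESeq2), with 1 higher and 0 lower at an unadjusted p under 0.05 and a median of 0.18. The higher one was UPF1, a helicase required for histone mRNA decay, at 0.58 ± 0.27 (unadjusted p 0.029) in the authors' deposited table. SLBP, which binds the stem-loop, was at -0.37 ± 0.24 with 1619 normalised reads in DTC and 2158 in Parental, by the authors' deposited table. The cap-binding pair NCBP1 and NCBP2 was at 0.40 ± 0.26 and -0.41 ± 0.23 in the authors' deposited table.

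Of 25 histone chaperones and exchange factors 24 were tested and 0 called in the authors' deposited table (DESeq2), with 1 higher and 1 lower at an unadjusted p under 0.05 and a median of -0.05. SRCAP, the motor of the complex that inserts H2A.Z, was at 0.90 ± 0.36, and NAP1L1, a chaperone of H2A and H2B, at -0.54 ± 0.27 in the authors' deposited table. ASF1B, a chaperone of new H3 and H4, was at -0.59 ± 0.31 and TONSL, a reader of new H4, at 0.60 ± 0.31 in the authors' deposited table. Of 14 genes for cleavage and tailing, 0 were called and 1 was higher at an unadjusted p under 0.05 in the authors' deposited table (DESeq2). This was CPSF1, a subunit of the complex that recognises the poly(A) signal, at 0.61 ± 0.28; PABPN1, the nuclear tail-binding protein, was at -0.48 ± 0.30 in the authors' deposited table.

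The 20 S-phase and G1/S genes had 0 called and 0 at an unadjusted p under 0.05 in the authors' deposited table (DESeq2), with a median of 0.02, 11 genes above 0 and 9 below. The 4 with the smallest p all lay below 0: PCNA, the replication clamp, was at -0.56 ± 0.29, GINS2 at -0.56 ± 0.30, TYMS at -0.46 ± 0.27 and CDT1 at -0.43 ± 0.31 in the authors' deposited table.

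All 6 epithelial markers were tested, with mean levels of 78.2 to 35758, and 2 lay above 0 and 4 below in the authors' deposited table. The keratins KRT19 and KRT18 were at -0.56 ± 0.29 and -0.33 ± 0.29, the adhesion protein CDH1 at 0.40 ± 0.27 and the mucin MUC1 at 0.45 ± 0.32 in the authors' deposited table. Of 6 fibroblast markers COL1A1 had a row, at a mean of 162, and the 4 haematopoietic markers with a row summed to a mean of 33.5. Of 5 endothelial markers 3 had a row and CDH5 was highest, at a mean level of 253. None of these markers was called in the authors' deposited table (DESeq2), with 0 at an unadjusted p under 0.05.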

How the data were processed

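The members, lists and alternatives were chosen with earlier results of these data known. The submitters' processing notes name hg38, STAR, FastQC and DESeq2, with no versions; how reads were counted is not given in the sources used here. Mean level is the authors' normalised signal, the mean of reads over size factors. The log2 fold changes with SE, Wald scores, p-values and adjusted p-values were deposited by the authors, with the fold changes moderated towards 0; positive is higher in DTC. The table holds no counts per library, so the count test planned was not run.

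Reads per library were sought as whole numbers whose weighted sum gives the mean and whose refit, with the authors' form of moderation, gives the fold change and SE. This gave 1 answer for all 16867 genes with a mean under 100, within 2e-06 of the fold change; the nearest second answer was off by 4.5e-05. HIST1H2BK, H2AFJ and H1FX were solved alone. HIST1H2BK had 1 answer within 2e-06, while H1FX and H2AFJ had 3 each, of which the closest was kept, at 6.7e-09 and 4.5e-09; the second were off by 2.1e-07 and 1.0e-06. On simulated libraries 100% of 509 genes with a mean under 100 and 4 of 4 above it were recovered. Group means of abundant variants come from mean, fold change and SE, with normalised reads taken as equal within a group. Parental a departs from this in many genes. The median error was 0.277% and the 99th percentile 1.02% in genes of similar SE whose reads are known. Those genes had means of 50 to 100, while the 7 variants had means of 1406 to 6710, where the error was not measured. Size factors ran from 0.789 to 1.19. Any member could be named, and from each list up to 4 genes with the smallest p and a mean of at least 10. Python 3.11.15, scipy 1.17.1 and GENCODE 29 were used.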

Additional observations from a re-analysis of the deposited data

How the results depend on the processing

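The number of histone genes called stayed at 0 at a threshold of 0.01, without a filter on low counts, at a mean of at least 50 and with the score scaled by its robust SD; with the length and GC trend removed it was 2, HIST1H2BK and HIST1H2AC. The share of all tested genes called with that trend removed is not given here. The lowest adjusted p over these settings ran from 0.010 to 0.97. The median log2 fold change of clustered genes was 0.22, 0.70 at a mean of at least 50 (2 genes), 0.51 with the trend removed and -0.04 over all 58. That of variants was -0.53, -0.21 over all 15 and -0.20 with the trend removed. The log2 ratio of the summed clustered reads, 0.35, ran from 0.12 to 0.55 when each library was left out, the lowest without DTC b and the highest without DTC a, and was 0.77 against Parental a alone and 0.18 against Parental b and c. Against Parental a alone both DTC libraries were higher in 19 of 28 tested clustered genes, in place of 11 (each copy counted), and lower in 1. Against Parental b and c alone both were higher in 12 and lower in 5, in place of 11 and 1. Groups separate more easily from fewer libraries. The matching shares of all tested genes are not given here, so nothing is drawn from the changes in these counts. H2AFJ and H1FX turned, from log2 ratios of -0.79 and -1.04 to 0.15 and 0.044, against Parental a alone, in their closest sets of reads; the cause was not tested. The tested clustered sum overlapped between the groups without HIST1H2BK. HIST1H2AC ran from 1.09 to 1.92 when each library was left out, and was lowest without DTC b. The comparisons with parts of the Parental group, the sum without HIST1H2BK and the other sets of reads were chosen after seeing the data. No paired analysis was possible because the table carries no replicate numbers. Most clustered genes rest on fewer than 100 reads in all, which limits what depth can show.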
